A study of Mus musculus with 6 samples.

Results

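Interleukins, colony-stimulating factors and their receptor chains were followed in primary mouse astrocytes exposed to tumour necrosis factor (TNF), an inflammatory cytokine. The set was chosen by name: all gene symbols made of Il and a digit, with Csf1, Csf2, Csf3, Lif, Lifr, Osm and Osmr added, among genes whose probe set on the array carried exactly 1 symbol. It held 83 of the 19926 genes measured, 41 of them ligands, 35 receptor chains, 6 binding proteins or antagonists, and Il1bos, an RNA antisense to Il1b that the naming rule also takes in. The cells came from the mouse strain C57BL/6J. They received TNF at 50 ng/mL for 24 h, and control cultures were collected at the same time. Each group had 3 samples, numbered 1 to 3, each on 1 Affymetrix Mouse Gene 1.0 ST array, and the labels give neither the age of the mice nor whether the samples were separate cultures or animals. The p-values therefore rest on the variation among these arrays alone, part or all of which may be technical. Values are log2 signals, and differences are TNF minus control on that scale. Array signals compress large changes, so folds tend to be understated. Levels of different genes are not comparable on an array, and a gene is called dim here only as a rough guide, where its mean signal was below that of the median gene.

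Many cytokine receptors of these families pair a private chain that recognises the ligand with a shared chain that signals, while the receptors for CSF1 and for CSF3 are homodimers. Most interleukin receptors act through Janus kinases and STAT transcription factors. The IL-1 and IL-17 receptors instead signal through adaptor proteins to NF-kB, the same family of transcription factors that TNF activates. In the brain, astrocytes are known sources of IL-6, LIF, CSF1 and IL-15, and CSF1 and IL-34 share a receptor that microglia need to survive.

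With TNF, 12 of the 83 genes rose and 1 fell, and 70 did not pass the test (limma, adjusted p under 0.05 over all genes tested). Over all 19926 genes, 3.87% were called higher and 3.33% lower, so 14.5% of the set was higher and 1.2% lower. The genes that rose were the ligands Il6, Csf1, Il34, Il15 and Lif, the receptor chains Il13ra1, Il10rb, Il4ra, Osmr, Il15ra and Il17rc, and the binding protein Il18bp. The gene that fell was Il1rapl1. By role, 5 of 41 ligands rose and none fell, 6 of 35 receptor chains rose and 1 fell, and 1 of 6 binding proteins or antagonists rose. The median difference of the set was 0.07, beside -0.0033 over all genes tested, and it was -0.04 without TNF 3. Groups did not overlap for 19 members that were higher and 3 that were lower, 22.9% and 3.61% of the set, beside 12.3% and 11.7% of all genes.

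**Figure D1:**
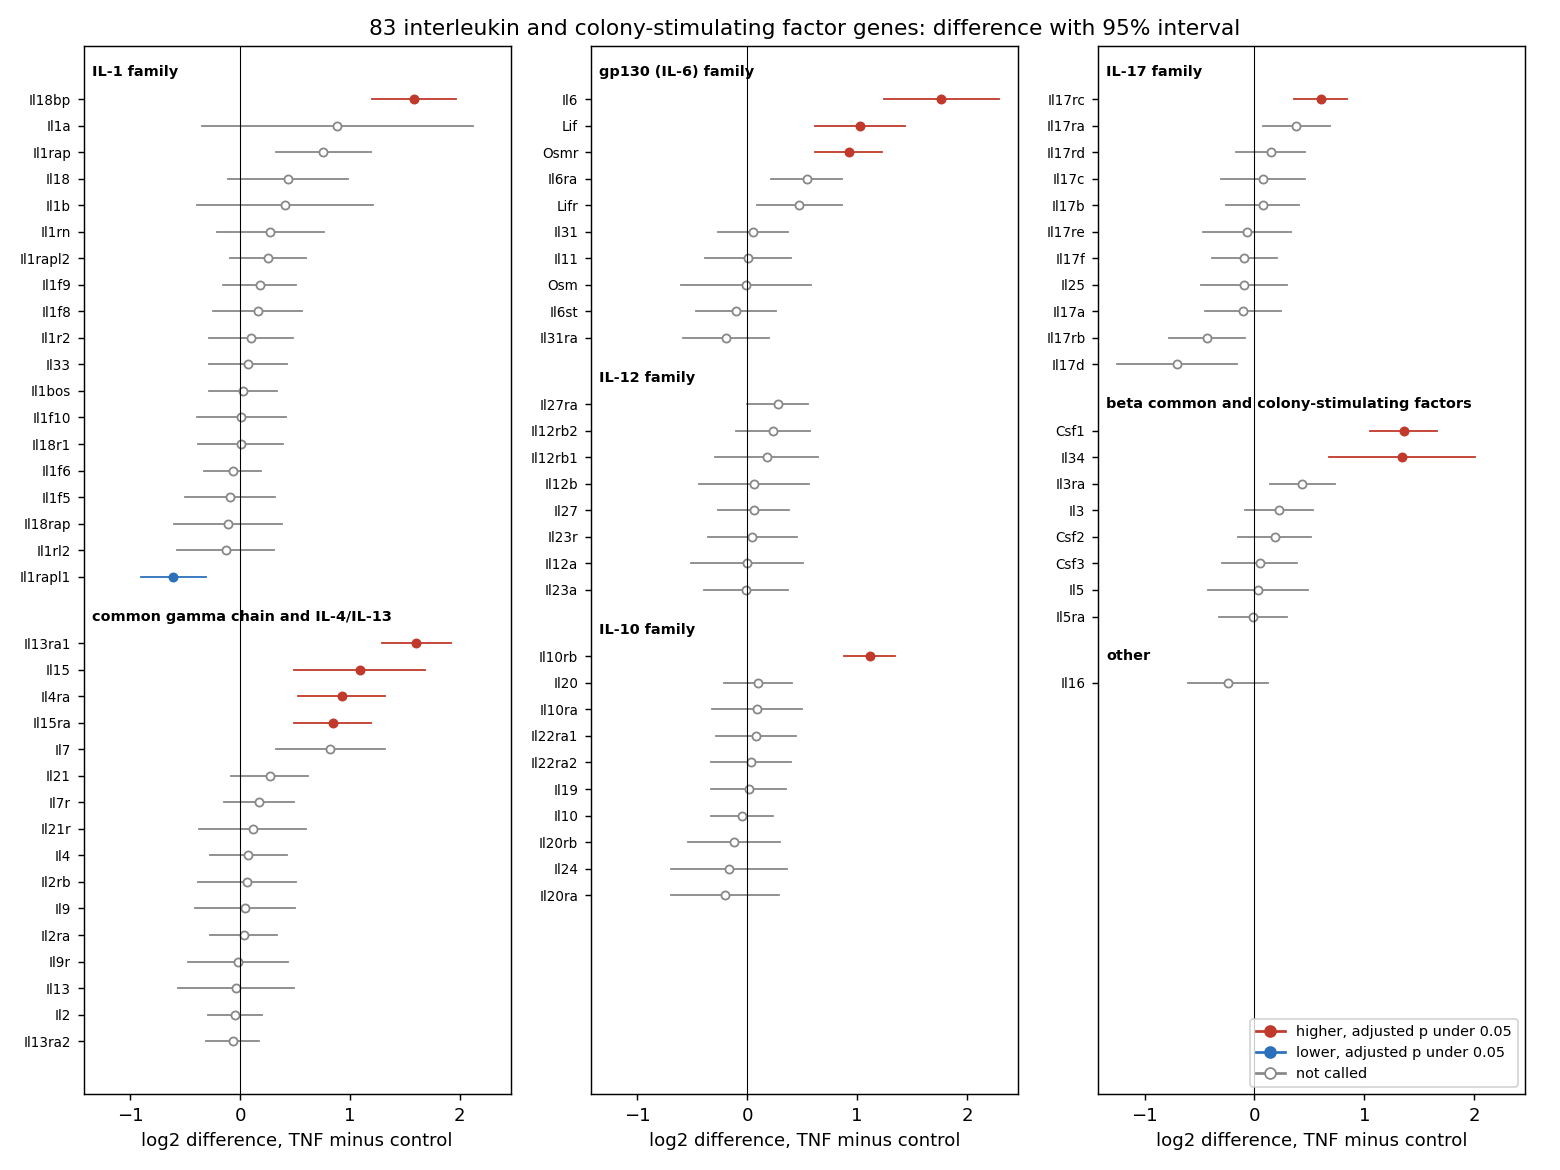
Log2 difference, TNF minus control, for the 83 genes in their families, with 95% intervals from the limma fit (n = 3 per group). Filled points mark the 12 genes called higher (red) and Il1rapl1, called lower (blue); open grey points are the 70 genes not called, most of them close to 0.

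Most of the set gave low signals. The mean signal over the 6 arrays lay below that of the median gene (7.63) for 65 of the 83 members, and no detection calls were used, so such values may lie near background. Of the other 18 members, 9 were called higher and none lower, beside 6.21% and 5.58% of all genes at or above the median. That mean includes the TNF arrays, and Il34, among the 9, lay below the median gene in controls (7.35), so the split is a description. Among the 65 dim members 3 were called higher, Il6, Il15 and Lif, and 1 lower, Il1rapl1, beside 1.53% and 1.07% of all genes below the median. The dim members included Il2, Il3, Il4, Il5, Il9, Il10, Il13, Il17a, Il21 and Il25, most of them cytokines known mainly from lymphocytes and other blood cells. The largest absolute difference among these 10 was 0.27, for Il21.

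Samples with the same number deviated together, and with the number as a block in the fit 20 members were higher and 2 lower, beside 9.73% and 11.8% of all genes. These included all 13 called without the block. The members added were Il1a, Il7, Il1rap, Il6ra, Lifr, Il3ra, Il18 and Il17ra as higher and Il17d as lower. The cells expressed astrocyte markers: the mean of 9 such genes was 10.64 to 10.94 in controls and 10.30 to 10.58 with TNF, and 3 of them, Gja1, Aldoc and Fgfr3, were called lower (differences from -1.01 to -0.94). Aqp4 and Slc1a2, each with a difference of 0.60, were higher without overlap but were not called without the block. With the block 5 astrocyte markers were lower and 2 higher. Microglia and macrophage markers were not called in either direction (0 of 14 measured, and 3 higher with the block), but they differed between the numbers: their mean in samples 1, 2 and 3 was 7.02, 6.38 and 7.70 without TNF and 7.33, 6.52 and 7.70 with it. The sum of their log2 signals ranged from 89.3 to 107.8 in controls and from 91.3 to 107.7 with TNF. Markers of lymphocytes (0 of 6) and mast cells (0 of 4) were not called, and their means were 5.52 to 5.85 and 5.04 to 5.10 in controls and 5.48 to 6.04 and 4.93 to 5.07 with TNF. Markers of oligodendrocytes (0 of 6) and neurons (0 of 5) were not called either. Without the block 3.87% of all genes were called higher and 3.33% lower, so lists this short would often hold no call. Of other lists, 1 of 5 endothelial markers, Kdr, and 1 of 6 fibroblast and mural markers, Acta2, were called lower (differences of -0.91 and -0.96, limma adjusted p = 0.0105 and 0.0174). Their part in the results was not tested. In such mixed cultures fewer cells of a type and less RNA per cell cannot be told apart.

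RefSeq promoters were matched for 64 of the 83 members and 10 of the 13 called. The 250 bases before the start are shown for the 4 called members with the largest differences, because these show how far a shared sequence goes among genes that rose together. Capitals mark GGG and CC with any 5 bases between them, on either strand, a loose form of the NF-kB motif, with overlapping matches merged. The Il6 stretch is chr5:30012864-30013113 on the plus strand, that of Il13ra1 chrX:36111858-36112107 on the plus strand, that of Il18bp chr7:102018233-102018482 on the minus strand and that of Csf1 chr3:107760470-107760719 on the minus strand, all in GRCm38.p6 and written 5′ to 3′ along the gene.
Il6: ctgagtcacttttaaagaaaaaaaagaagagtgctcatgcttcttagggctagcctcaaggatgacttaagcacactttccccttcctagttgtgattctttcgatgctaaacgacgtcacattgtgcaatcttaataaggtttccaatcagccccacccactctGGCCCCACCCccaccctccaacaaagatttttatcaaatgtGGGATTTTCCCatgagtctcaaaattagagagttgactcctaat
Il13ra1: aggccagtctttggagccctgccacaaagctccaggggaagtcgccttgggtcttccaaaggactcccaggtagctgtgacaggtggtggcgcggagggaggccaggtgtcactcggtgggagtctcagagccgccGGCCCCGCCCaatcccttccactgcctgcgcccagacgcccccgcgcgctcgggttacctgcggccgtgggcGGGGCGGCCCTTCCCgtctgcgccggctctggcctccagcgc
Il18bp: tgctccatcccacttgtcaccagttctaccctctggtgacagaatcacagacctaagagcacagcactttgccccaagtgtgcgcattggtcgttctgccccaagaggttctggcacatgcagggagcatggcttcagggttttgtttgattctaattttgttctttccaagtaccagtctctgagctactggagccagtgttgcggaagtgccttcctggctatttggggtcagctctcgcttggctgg
Csf1: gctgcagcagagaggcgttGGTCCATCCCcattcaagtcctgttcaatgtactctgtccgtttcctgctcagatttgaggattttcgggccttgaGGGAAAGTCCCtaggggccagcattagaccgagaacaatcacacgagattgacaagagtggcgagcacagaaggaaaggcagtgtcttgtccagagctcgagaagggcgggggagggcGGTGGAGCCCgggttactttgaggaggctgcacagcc

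The loose motif matched 3 times in the Il6 stretch, 3 times in that of Il13ra1, 4 times in that of Csf1 and not at all in that of Il18bp. It is common: 45.8% of all 32851 RefSeq promoters of this length hold it, and 48.7% of the 27025 genes with a promoter hold it in at least 1. Members were counted by gene in the same way. It was held by 7 of the 10 called members with a promoter (Csf1, Il13ra1, Il15ra, Il17rc, Il6, Lif and Osmr) and 33 of all 64 members with one. A tighter form, GGGA and TCC with any 3 bases between them, was chosen after the matches were seen. It lies in 3.86% of promoters and 4.41% of genes, in 2 of the 10, Il6 and Csf1, and in 6 of the 64. In Il6 it covers GGGATTTTCC, from 44 to 35 bases before the RefSeq start, and in Csf1 GGGAAAGTCC, from 155 to 146 bases before it. In each of these the other strand gives a second match shifted by 1 base. The STAT element, TTC and GAA with any 3 bases between them, and the core of the interferon-stimulated response element, GAAA and GAAA with any 2 bases between them, were in none of the 10. They were in 9 and 2 of the 64, and lie in 7.02% and 2.98% of all promoters and in 8.13% and 3.46% of genes. A match only describes the letters of the window.

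Both ligands of the receptor Csf1r, on which microglia and macrophages depend, rose with TNF. Csf1 read 11.51, 11.56 and 11.70 in controls 1, 2 and 3, and 12.72, 13.07 and 13.05 after TNF. All 3 TNF arrays lay far above all 3 controls. The difference was 1.36 (SE 0.13, 2.57-fold, limma adjusted p = 9.03e-04). Il34 read 7.05, 7.53 and 7.47 in controls and 8.23, 9.36 and 8.50 with TNF, a difference of 1.34 (SE 0.29, 2.54-fold, limma adjusted p = 0.0301). TNF 2 was the highest of the Il34 values, and the groups did not overlap. The Il34 call was lost without control 1 (adjusted p = 0.116), control 2 (0.064), control 3 (0.0724) or TNF 3 (0.05), with differences from 1.20 to 1.44 in these fits. Their receptor Csf1r, itself a microglia marker, read 7.06, 6.15 and 7.84 in controls and 7.55, 6.10 and 8.23 with TNF, and was not called (difference 0.27, SE 0.58, adjusted p = 0.928). The 3 replicate numbers were further apart than control and TNF within a number.

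The other colony-stimulating factors were dim and were not called. Csf2, the granulocyte-macrophage factor, read 5.59, 5.60 and 5.58 in controls and 5.51, 5.80 and 6.02 with TNF (difference 0.18, 95% interval -0.15 to 0.52). Csf3, the granulocyte factor, read 6.40, 6.65 and 6.61 in controls and 6.63, 6.36 and 6.82 with TNF (difference 0.05, interval -0.29 to 0.39). Both intervals leave out a 2-fold change of the signal in either direction. At signals this low, background can hide a change of the RNA. Il3ra, the private chain of the IL-3 receptor, was 8.49 ± 0.08 and 8.92 ± 0.19 (mean ± SD, n = 3 per group), a difference of 0.44 that passed with the block but not without it (limma adjusted p = 0.00998 and 0.0965). The ligands Il3 and Il5 and the chain Il5ra differed by 0.23, 0.03 and -0.01.

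**Figure D2:**
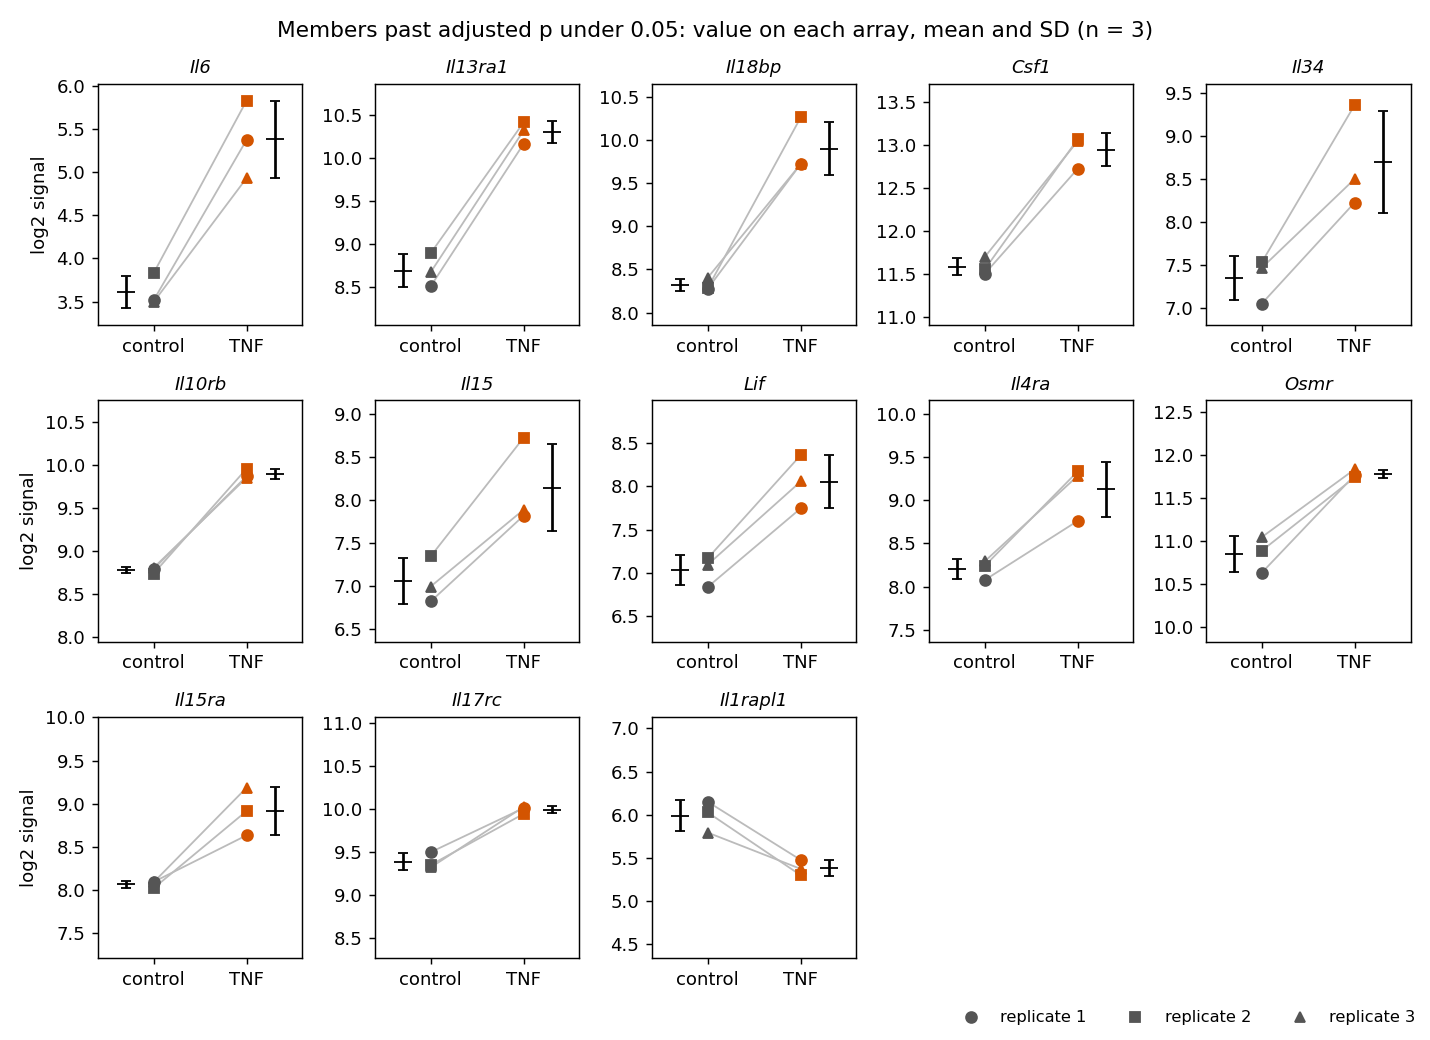
Log2 signal of the 13 called members on each array, with grey lines joining samples of the same number and bars giving the mean ± SD of 3 arrays. The groups do not overlap in any panel, and TNF 2 (square) is the highest TNF value of Il6, Il13ra1, Il18bp, Csf1, Il34, Il10rb, Il15, Lif and Il4ra.

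Of the IL-6 family, most of whose receptors share the signalling chain gp130 (Il6st), the ligands Il6 and Lif and the receptor chain Osmr rose. Il6 read 3.51, 3.83 and 3.49 in controls and 5.38, 5.83 and 4.93 with TNF. The lowest TNF value was 4.93 and the highest control 3.83, both low on this array. The fitted difference was 1.77 (SE 0.22, 3.41-fold, limma adjusted p = 0.00359). With controls this low and no detection calls, the fold may be understated. No other member had a larger fitted difference, and the call held in the 6 fits without 1 array. It was lost without replicate 1 (adjusted p = 0.0895), with a difference of 1.72. Lif, leukaemia inhibitory factor, which promotes the astrocyte fate in neural precursors, read 6.83, 7.17 and 7.09 in controls and 7.75, 8.36 and 8.06 with TNF. Its groups did not overlap, and it differed by 1.02 (SE 0.18, 2.03-fold, limma adjusted p = 0.0133). Without control 1 its call was lost (adjusted p = 0.0575). The Lif call was also lost in each of the 3 fits without a replicate number (limma adjusted p up to 0.107). Osmr, a chain of the oncostatin M receptor, read 10.63, 10.89 and 11.05 in controls and 11.77, 11.74 and 11.83 with TNF. The TNF values were close together, and the difference was 0.92 (SE 0.13, 1.90-fold, limma adjusted p = 0.00564). Its call held in the 6 fits without 1 array and was lost without replicate 1 (adjusted p = 0.0828) or replicate 2 (0.0835).

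The chains Il6ra and Lifr were higher with TNF in 3 of 3 pairs and passed with the block and not without it. Il6ra, the IL-6 binding chain, read 8.40, 8.01 and 8.34 in controls and 8.92, 8.76 and 8.69 with TNF (difference 0.54, SE 0.14, limma adjusted p = 0.0607 without and 0.00717 with the block). It also passed with array weights (adjusted p = 0.0331) and without genes below the lower quartile (0.0486) or the median (0.0309) of signal. Lifr read 8.27, 8.41 and 8.05 in controls and 8.94, 8.81 and 8.41 with TNF (difference 0.48, SE 0.17, limma adjusted p = 0.163 and 0.00998). For Lifr the lowest TNF value was level with the highest control, and it also passed with array weights (0.0328) and without TNF 3 (0.0491). The shared chain Il6st itself read 12.35, 11.95 and 12.35 in controls and 12.27, 11.89 and 12.18 with TNF. It differed by -0.10 (95% interval -0.47 to 0.26), so a 2-fold change lay outside the interval, and it passed in neither fit.

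The other ligands of the family, Il11, Osm and Il31, were dim and were not called. Il11 read 6.49, 6.46 and 6.83 in controls and 6.36, 6.56 and 6.88 with TNF (difference 0.01, interval -0.38 to 0.40). Osm, oncostatin M, a ligand of Osmr, read 5.88, 5.83 and 6.17 in controls and 5.78, 5.51 and 6.55 with TNF (difference -0.01, interval -0.60 to 0.58). Il31 and its chain Il31ra, counted with this family here, differed by 0.05 and -0.19.

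In the family that uses the common gamma chain or the IL-4 receptor, 4 of 16 members rose and none fell, beside 3.87% and 3.33% of all genes. Il13ra1 and Il4ra, which together form the receptor through which non-lymphoid cells respond to IL-4 and IL-13, both rose. Il13ra1 read 8.51, 8.89 and 8.67 in controls and 10.16, 10.41 and 10.32 with TNF. The gap between the groups was wider than the range within either, and the difference was 1.61 (SE 0.14, 3.04-fold, limma adjusted p = 4.48e-04). Il4ra read 8.07, 8.24 and 8.29 in controls and 8.76, 9.34 and 9.28 with TNF, with TNF 1 the lowest of its group. It differed by 0.93 (SE 0.17, 1.90-fold, limma adjusted p = 0.017), and the call was lost without control 1 (adjusted p = 0.0753), control 2 (0.0517) or TNF 2 (0.0631). The decoy chain Il13ra2 was 3.96 ± 0.10 and 3.90 ± 0.01 (n = 3 per group) and was not called. The ligands Il4 and Il13 differed by 0.07 and -0.03 from low signals.

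Il15, a cytokine of natural killer and memory T cells, and Il15ra, the chain that presents it at the cell surface, rose as well. Il15 read 6.82, 7.35 and 7.00 in controls and 7.82, 8.72 and 7.89 with TNF (difference 1.09, SE 0.26, 2.13-fold, limma adjusted p = 0.0447). Sample 2 was the highest of each group, and the pair differences were 1.00, 1.38 and 0.89. Leaving out any 1 array ended the Il15 call, with adjusted p of 0.159, 0.0597 and 0.125 without controls 1, 2 and 3 and of 0.0526, 0.0623 and 0.0529 without TNF 1, 2 and 3. With the block its adjusted p was 5.71e-04. Il15ra read 8.09, 8.02 and 8.09 in controls and 8.63, 8.92 and 9.19 with TNF (difference 0.85, SE 0.15, 1.80-fold, limma adjusted p = 0.0151). Its controls lay close together, while the TNF values spread more widely. That call was lost without control 1 (adjusted p = 0.0595), control 2 (0.0553), control 3 (0.0505) or TNF 2 (0.0568).

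Il7, a survival factor of lymphocytes, read 5.95, 6.52 and 6.01 in controls and 7.10, 7.24 and 6.61 with TNF. Its lowest TNF value lay just above its highest control. The difference of 0.82 (SE 0.21) did not pass without the block (limma adjusted p = 0.0624). It passed with the block (adjusted p = 0.00262), with array weights (0.0115), without control 2 (0.0415) and without TNF 3 (0.0283). The receptor chains Il7r, Il2ra, Il2rb, Il9r and Il21r, known from lymphocytes, differed by -0.02 to 0.17 and were not called. The common chain itself, Il2rg, was not analysed here, since no probe set on the array was assigned to it alone.

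Of the IL-1 family 1 of 19 members rose and 1 fell, beside 3.87% and 3.33% of all genes. Il18bp, a secreted protein that binds and neutralises IL-18, read 8.28, 8.28 and 8.40 in controls and 9.72, 10.26 and 9.72 with TNF. All 3 TNF values lay far above the controls, a difference of 1.58 (SE 0.16, 2.99-fold, limma adjusted p = 0.00131). Il18 itself read 8.47, 7.91 and 7.87 in controls and 8.79, 8.70 and 8.07 with TNF. Its groups overlapped, since control 1 was above TNF 3, and the difference of 0.44 (SE 0.23) passed with the block but not without it (limma adjusted p = 0.0411 and 0.403). The IL-18 receptor chains Il18r1 and Il18rap were dim and differed by 0.01 and -0.11.

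Il1a and Il1b, the founding ligands of the family, were not called without the block, and 1 sample stood out. Il1a read 4.29, 3.77 and 4.64 in controls and 4.76, 4.17 and 6.43 with TNF, and TNF 3 stood far above the other 5 arrays. The pair differences were 0.47, 0.40 and 1.79, and the fit gave 0.89 (SE 0.53, limma adjusted p = 0.47, and 0.0438 with the block). Without TNF 3 the difference was 0.23. Il1b read 5.62, 5.71 and 6.13 in controls and 6.29, 5.46 and 6.95 with TNF (difference 0.41, SE 0.34, limma adjusted p = 0.67, and 0.188 with the block). For both ligands replicate 3 was the highest in each group, and TNF 2 the lowest TNF sample. The microglia markers had that order too, with means of 7.33, 6.52 and 7.70 in TNF 1, 2 and 3, and their part in the IL-1 values was not tested. Il1rn, the receptor antagonist, read 6.44, 6.10 and 6.32 in controls and 6.32, 6.32 and 7.04 with TNF (difference 0.28, 95% interval -0.21 to 0.76), again with TNF 3 the highest.

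**Figure D3:**
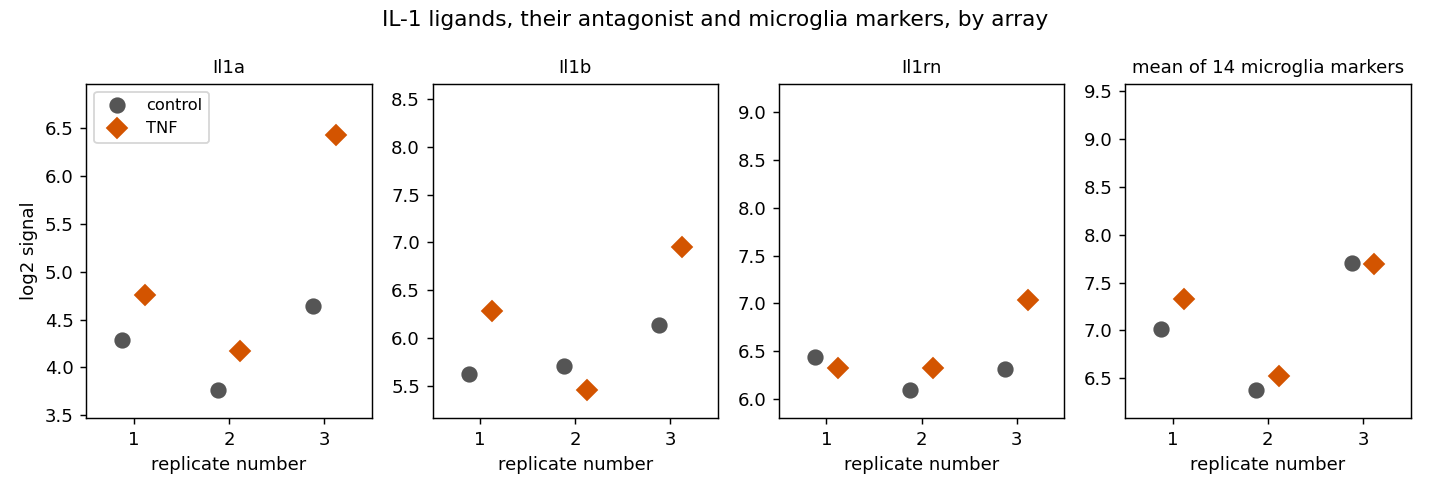
Log2 signal of Il1a, Il1b and Il1rn and the mean log2 signal of 14 microglia and macrophage markers, by replicate number, for control (grey circles) and TNF (orange diamonds). TNF 3 is the highest array for Il1a (6.43), Il1b (6.95) and Il1rn (7.04), and the marker mean is highest in both samples numbered 3 (7.70) and lowest in those numbered 2.

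Il1rap, the accessory chain that the receptors for IL-1, IL-33 and IL-36 share, read 8.83, 8.87 and 8.41 in controls and 9.24, 9.79 and 9.36 with TNF. The groups did not overlap, and the difference of 0.76 (SE 0.18) stood at the threshold: limma adjusted p was 0.0509, and 0.00415 with the block. It also passed after centring of each array (adjusted p = 0.0406), after quantile normalization of the genes tested (0.0291), with trend and robust variance (0.0352), with array weights (0.0234) and without genes below the lower quartile (0.0433) or the median (0.0307) of signal. Il1rapl1, a relative of this chain known as a synaptic adhesion molecule, read 6.15, 6.03 and 5.79 in controls and 5.47, 5.30 and 5.37 with TNF. It fell by 0.61 on the log2 scale from a low signal (SE 0.13, 1.52-fold lower, limma adjusted p = 0.0285). The call of Il1rapl1 was lost without control 1 (adjusted p = 0.114), control 2 (0.0959), TNF 1 (0.0593), TNF 2 (0.111) or TNF 3 (0.0612), and after quantile normalization of the genes tested (0.0644). Il33, an alarmin stored in the nucleus, read 6.78, 6.95 and 6.92 in controls and 6.85, 7.27 and 6.75 with TNF, a difference of 0.07 (interval -0.28 to 0.43). The IL-36 and IL-38 ligands, the chain Il1rl2, the decoy receptor Il1r2 and the antisense Il1bos differed by -0.13 to 0.18, and Il1rapl2 by 0.26; none of these was called. Il1r1 and Il1rl1, the binding chains for IL-1 and IL-33, were not analysed here.

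Among 10 members of the IL-10 family only Il10rb was called, beside 3.87% of all genes called higher and 3.33% lower. Il10rb is the shared chain of the receptors for IL-10, IL-22 and type III interferon. It read 8.79, 8.74 and 8.80 in controls and 9.87, 9.95 and 9.85 with TNF. Replicates lay close together in each group, and the difference was 1.11 (SE 0.10, 2.16-fold, limma adjusted p = 6.07e-04). Il10ra, the private chain that binds IL-10, read 5.63, 5.45 and 5.81 in controls and 5.67, 5.43 and 6.05 with TNF (difference 0.09, interval -0.32 to 0.50). Il10 read 4.74, 4.69 and 4.85 in controls and 4.53, 4.79 and 4.82 with TNF (difference -0.05, interval -0.33 to 0.23). The chains Il20ra, Il20rb and Il22ra1, the binding protein Il22ra2 and the ligands Il19, Il20 and Il24 differed by -0.20 to 0.10, and none was called.

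The IL-12 family, whose ligands are paired subunits that steer T helper cells, gave no call in 8 members, and all 8 were dim. Over all genes 3.87% were called higher and 3.33% lower, and 1.53% and 1.07% of those below the median gene. A set of 8 genes would therefore often hold no call. Il12a read 5.96, 5.84 and 6.41 in controls and 5.74, 6.01 and 6.46 with TNF. Il12b, the subunit shared by IL-12 and IL-23, read 5.82, 6.01 and 6.41 in controls and 5.90, 5.98 and 6.54 with TNF. For both subunits sample 3 was the highest of each group and the groups overlapped. Il23a read 5.93, 5.84 and 6.02 in controls and 5.61, 5.92 and 6.23 with TNF, and Il27 read 7.53, 7.35 and 7.66 in controls and 7.43, 7.52 and 7.79 with TNF. These also overlapped between the groups. Il27ra, the IL-27 binding chain, read 6.82, 6.73 and 6.98 in controls and 6.98, 7.14 and 7.23 with TNF, so that the groups met without overlapping. Its difference of 0.28 (95% interval -0.0047 to 0.56) was the largest of the family, and it passed neither without the block nor with it (limma adjusted p = 0.274 and 0.0588). The receptor chains Il12rb1, Il12rb2 and Il23r differed by 0.18, 0.23 and 0.05.

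Of 11 members of the IL-17 family 1 rose and none fell, beside 3.87% and 3.33% of all genes. Il17rc, which pairs with Il17ra to bind IL-17A and IL-17F, read 9.50, 9.35 and 9.32 in controls and 10.01, 9.95 and 10.03 with TNF, a rise of 0.60 (SE 0.11, 1.52-fold, limma adjusted p = 0.0139). The TNF samples lay close together. Without control 2 or control 3 that call was lost (adjusted p = 0.0563 and 0.0585). Il17ra read 7.54, 7.93 and 7.66 in controls and 8.06, 8.17 and 8.05 with TNF, and its difference of 0.38 (SE 0.13) passed with the block but not without it (limma adjusted p = 0.0197 and 0.152). Il17d, a ligand of the family, read 8.63, 8.88 and 7.98 in controls and 7.91, 7.95 and 7.53 with TNF. The highest TNF value lay just under the lowest control, and sample 3 was the lowest in both groups. Its difference of -0.70 (SE 0.24) was the lowest of the set and passed with the block and not without it (limma adjusted p = 0.00335 and 0.143). It also passed without control 3 (adjusted p = 0.0305) and without replicate 3 (0.0422). Il17rb, the receptor chain for IL-25, was 6.82 ± 0.23 and 6.39 ± 0.16 (n = 3 per group) and did not pass in either fit (adjusted p = 0.159 and 0.0516). Il17a, Il17f, Il17b, Il17c and Il25 were dim and differed by -0.11 to 0.08, and the chains Il17rd and Il17re by 0.15 and -0.07.

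**Figure D4:**
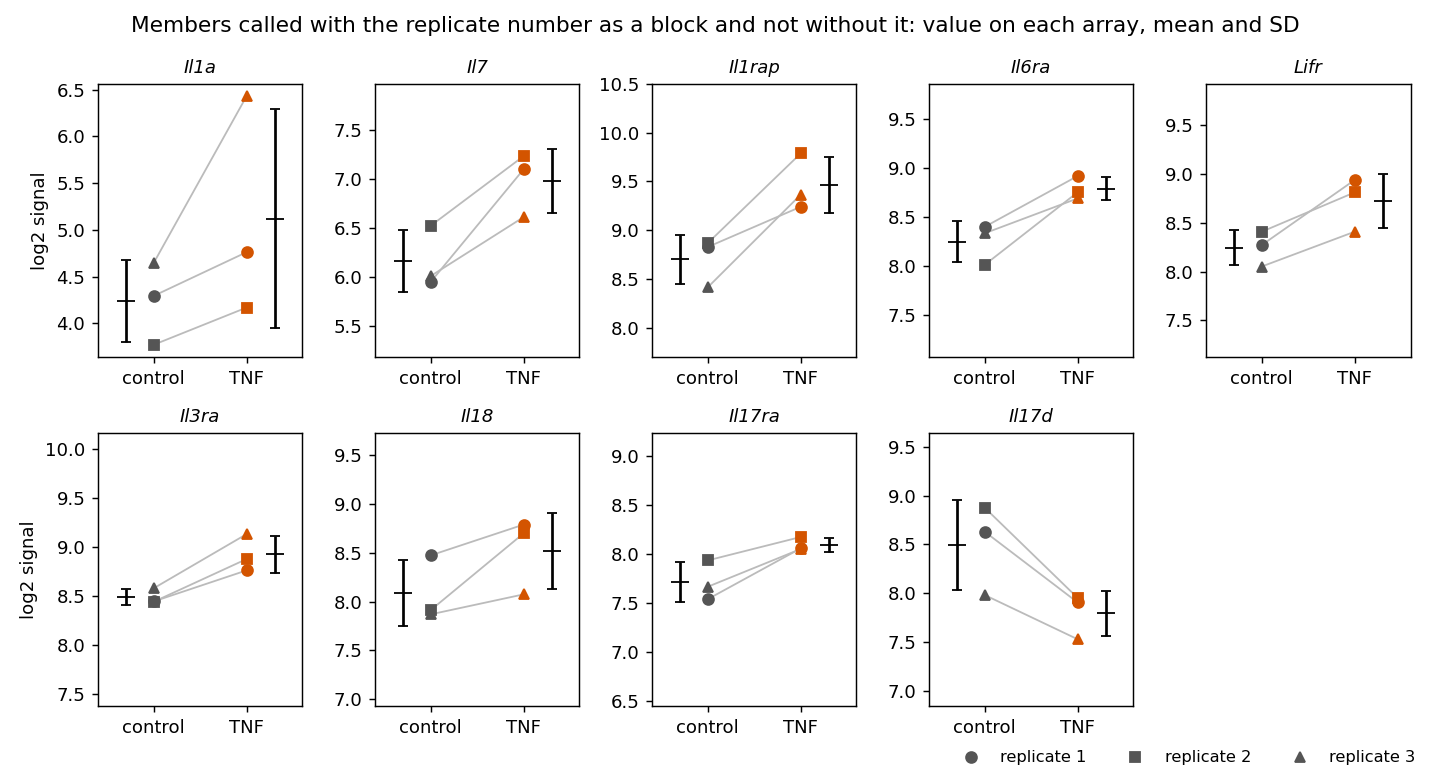
Log2 signal on each array of the 9 members called with the replicate number as a block and not without it, with lines joining samples of the same number and bars giving the mean ± SD of 3 arrays. All 3 lines run upwards in 8 panels and downwards for Il17d, while the groups overlap for Il1a and Il18 and meet for Lifr.

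Il16, which belongs to none of these families, differed by -0.24 and was not called. Over the whole set, 25 members were higher in 3 of 3 pairs and 6 lower in 3 of 3, or 30.1% and 7.23%, beside 25.7% and 26.9% of all genes. In 3 members with more than 1 probe set (Il17rd, Il20rb and Il22ra1), none of them called, only the brightest probe set was used. In the 6 fits without 1 array, 7 to 12 members were higher, the fewest without control 1, beside 2.33% to 3.36% of all genes. The 4 members called in every one of these fits and in the 3 fits without a replicate number were Csf1, Il13ra1, Il18bp and Il10rb. Il34, Il15, Il15ra, Il17rc, Lif and Il1rapl1 lost their calls in each of the 3 fits without a replicate number. Il4ra lost its call without replicate 2 or replicate 3.

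Of 50 other genes of cytokine signalling, 45 were measured, and 11 of these rose and none fell, beside 3.87% and 3.33% of all genes. With the block 16 rose and 1 fell, beside 9.73% and 11.8%. The other genes of the list were not analysed here. Among 12 further ligands and receptors, 1 rose: Cntfr, the binding chain for ciliary neurotrophic factor and a partner of Lifr and gp130. It went from 8.81 ± 0.15 to 9.70 ± 0.12 (n = 3 per group, difference 0.90, SE 0.13, limma adjusted p = 0.00538). Of 20 Janus kinases, STATs and their inhibitors 5 rose, and 9 with the block, which added Stat5b, Stat6, Socs1 and Socs3. Stat2, a factor of interferon signalling, rose 4.57-fold (difference 2.19, SE 0.17, limma adjusted p = 2.83e-04), Tyk2 rose 1.78-fold, Stat5a 1.76-fold and Jak2 1.53-fold. Stat3, the factor that gp130 receptors activate, rose from 11.53 ± 0.04 to 12.11 ± 0.06 (1.50-fold, limma adjusted p = 0.0133). Socs3, its feedback inhibitor, was 8.67 ± 0.25 and 9.02 ± 0.12 and passed with the block but not without it (limma adjusted p = 0.0259 and 0.266).

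Of 13 genes of IL-1 and IL-17 signalling 5 rose and none fell, beside 3.87% and 3.33% of all genes. With the block 6 rose and 1 fell, beside 9.73% and 11.8%. Myd88, the adaptor of the IL-1 and IL-18 receptors, read 9.83, 9.60 and 9.88 in controls and 11.17, 11.08 and 11.33 with TNF (difference 1.42, SE 0.13, 2.68-fold, limma adjusted p = 5.87e-04). Irak3, a kinase relative that dampens this pathway, rose 3.05-fold, and Irak2 rose 1.42-fold. Casp1, the protease that cuts the precursors of IL-1 beta and IL-18, had a mean of 6.64 ± 0.34 in controls and 9.38 ± 0.34 with TNF (n = 3 each), a rise of 6.67-fold (limma adjusted p = 3.65e-04). Casp4, an inflammatory caspase that senses bacterial lipopolysaccharide inside the cell, rose 25.0-fold, the largest difference among these 45 genes (4.64, SE 0.12, limma adjusted p = 6.29e-06). Traf6, Irak1, Map3k7, Tab1, Tab2 and Tab3 differed by -0.02 to 0.20 and were not called. Traf3ip2 differed by 0.42 and Tollip by -0.27, and both passed with the block but not without it. Their limma adjusted p was 0.0358 and 0.0471 with the block, and 0.109 and 0.171 without it.

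**Figure D5:**
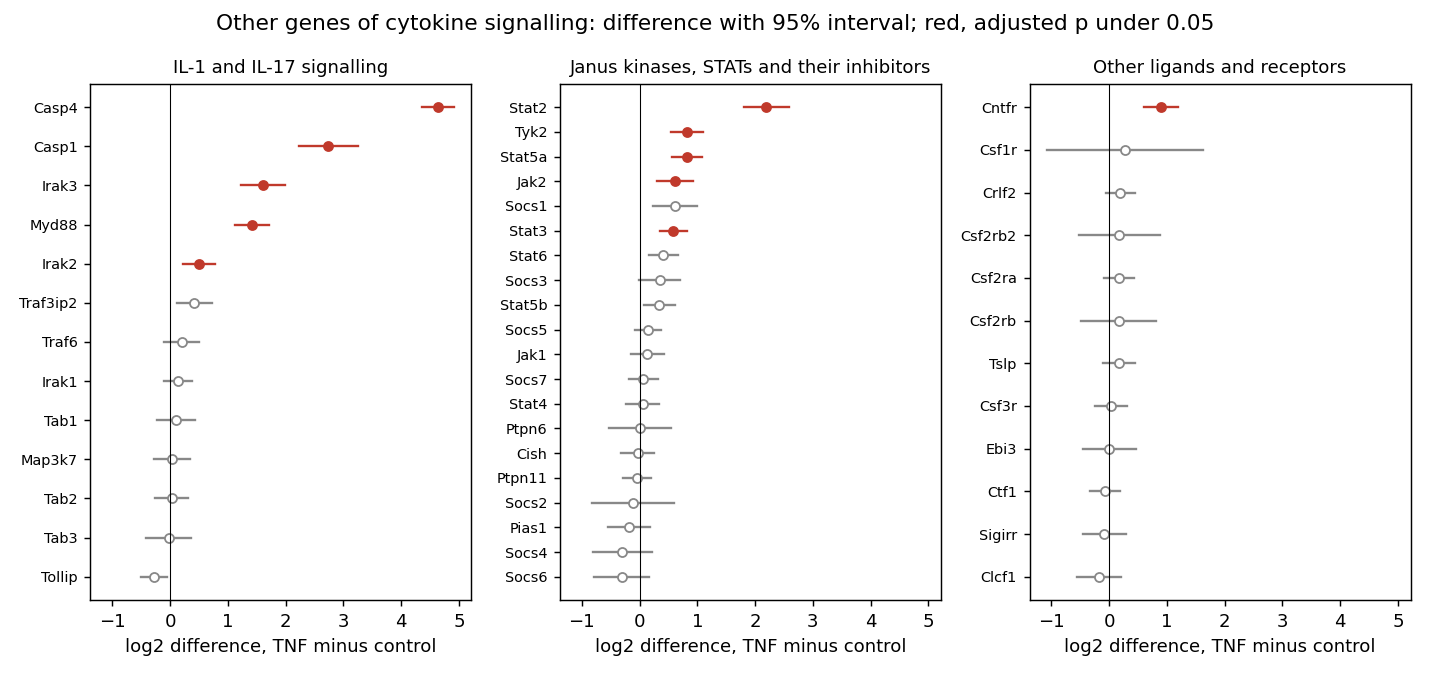
Log2 difference, TNF minus control, with 95% intervals (n = 3 per group) for 45 other genes of cytokine signalling in their 3 lists. Red points mark the 11 genes called higher, with Casp4 at 4.64 the farthest from 0, and the widest interval is that of Csf1r.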

How the data were processed

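RNA of 6 samples was measured on Affymetrix Mouse Gene 1.0 ST arrays. The deposited values are log2 signals, made by the authors with RMA per the submitters' processing notes; those notes also name limma, with versions not given in the sources used here. RMA sets all arrays to 1 distribution, so changes shared by all genes cannot be seen. No header states the log base, which was inferred from the range of 2.04 to 14.37 over 35544 probe sets.

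Probe sets with exactly 1 gene symbol were kept (21777; 1621 had several and 12146 none), and the probe set of highest mean stood for each of 19926 genes. TNF was compared with control with R 4.3.3 and limma 3.58.1 (eBayes after lmFit, two-sided, no block, no filter on low values), with Benjamini-Hochberg adjustment over all genes and a threshold of 0.05. Intervals are 95% intervals of that fit. The test was checked on simulated data. The titles number the samples 1 to 3, and same-numbered samples deviated together from their group means (correlations of 0.55, 0.65 and 0.75, against -0.53 to -0.04 for other combinations). Same-numbered samples are therefore called pairs here. The main fit and the fits that leave out arrays or replicate numbers had no block. The blocked fit is given beside the calls and counts it changes most. Only 3 arrays per group limit the precision.

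The members and lists were chosen with earlier results of these data known. Named with values were all called members, a fixed list of 34 measured family members, the 5 uncalled members of largest difference, and the partner genes of smallest p with Csf1r, Jak2, Stat3, Socs3 and Myd88; Il3ra, Il17rb and Il13ra2 were added after their values were seen. Promoters came from RefSeq (GRCm38.p6), of which the 250 bases before the start were searched. Alternatives covered array weights, centring, quantile normalization, trend and robust variance, other probe set rules, filters on dim genes, stricter thresholds, and leaving out arrays and pairs. Genes without a probe set of their own were not analysed here.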

Additional observations from a re-analysis of the deposited data

How the results depend on the processing

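The 12 members called higher became 20 with the replicate block and 6 at adjusted p under 0.01. They numbered 7 to 12 in the fits without 1 array and 5 to 6 in those without a replicate number, which have fewer samples. In the other alternatives 8 to 17 were higher. The single member called lower, Il1rapl1, became 2 with array weights and 2 with the replicate block. The number lower was 0 after quantile normalization of the genes tested, at adjusted p under 0.01 and with a log2 difference of at least 1. It was also 0 without genes below the lower quartile or the median of signal, but these filters removed Il1rapl1 (mean signal 5.68) before the fit. Both filters also removed Il6, and the median filter removed Il15 and Lif. The numbers of higher members under these filters therefore leave those genes out. Without 1 array the number lower was 0 to 2, and without a replicate number 0 to 1. Among the 45 partner genes, the 11 higher became 5 with a log2 difference of at least 1 and 5 to 10 in the fits without arrays or replicate numbers. With the replicate block 1 partner gene, Tollip, was lower, against 0 in limma without the block and 1 at an unadjusted p under 0.05. The median difference of 0.07 became 0.68 without genes below the median signal, where 18 members remain, and ran from -0.04 to 0.15 in the fits without 1 array. Of 689 alternative values of 36 named members, 604 stayed on their side of the threshold with the same direction where called, 61 lost and 24 gained a call, and no called value changed sign. The replicate block removed no call of a member. The trend and robust variance was not run for the median, which it leaves as it is. Most members gave low signals, where a change can be hidden by background, and 3 arrays per group leave a median SE of 0.14.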
